A study of Nasonia vitripennis with 2 samples.

Results

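The regions described are the long methylated CpG clusters of the parasitoid wasp Nasonia vitripennis, stretches of 2500 bp or more in which nearly every CpG is methylated. They were found in whole-genome bisulfite sequencing of 1 pool of 50 adult females (strain AsymCX, cured of Wolbachia, whole body, 24 h). DNA of this pool was run in 1 lane of a Genome Analyzer IIx and 1 lane of a HiSeq2000, and the deposited counts sum both lanes per CpG site. A covered CpG had at least 10 reads, and an mCpG was a covered CpG with more than 10% methylated reads. mCpGs at most 500 bp apart were chained, and a chain ended at 3 covered non-mCpGs in a row. To count as a cluster, a chain needed 4 or more covered CpGs, over 80% of them mCpGs, and a methylation percentage (methylated reads over all reads at its covered CpGs) above 40%. The rule gave 5451 clusters, and 280 of them (5.14%) had a span of 2500 bp or more from first to last mCpG. Positions, spans, shares of mCpGs and methylation percentages of the clusters were therefore chosen by the same counts that describe them, and are given without a test. Because a single pool was sequenced and the lanes were not counted apart, there is no error between samples. Intervals are 95% Wilson intervals for shares and 95% binomial rank intervals for medians over clusters, and those of reads cover counting error only. Reads from PCR that carry no molecular identifier may repeat a molecule, and 1 read can be counted at several CpGs.

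In bisulfite sequencing a C that stays a C marks a methylated cytosine, and a C read as T marks a non-methylated one. DNA methylation in insects with a working methylation system is sparse and lies mostly over the bodies of transcribed genes, in contrast to mammals, where most CpGs are methylated. Methylated cytosines deaminate to thymine, so CpGs are lost over evolutionary time from sequence that is methylated in the germline. The position of a cluster is given on the reference scaffolds to which the authors aligned the reads, and their release is not given in the sources used here. Gene annotation on these scaffolds was not analysed here, so exons, introns and genes are named only where the study's lists of positions give them.

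The 280 long clusters spanned 907288 bp, or 0.308% of the scaffold length, taken to the last CpG of each scaffold. Of their 13130 CpG sites 11688 were covered, and 10921 of those passed as mCpGs (93.4%, interval 93.0% to 93.9%). Over all scaffolds 1.50% of covered CpGs were mCpGs, but the rule itself sets the share inside clusters above 80%. With 9.34% of all 116929 mCpGs (interval 9.17% to 9.51%), the long clusters held more than the 763 clusters under 500 bp (4.38%) and less than the 4408 mid-length clusters of 500 to under 2500 bp (66.5%). At the covered CpGs of the long clusters 291311 of 456217 reads were methylated, or 63.9%. The pooled methylation percentage was 63.5% in mid-length clusters and 62.8% in short ones. The classes differed little in level, as the plot of methylation against span shows.

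**Figure D1:**
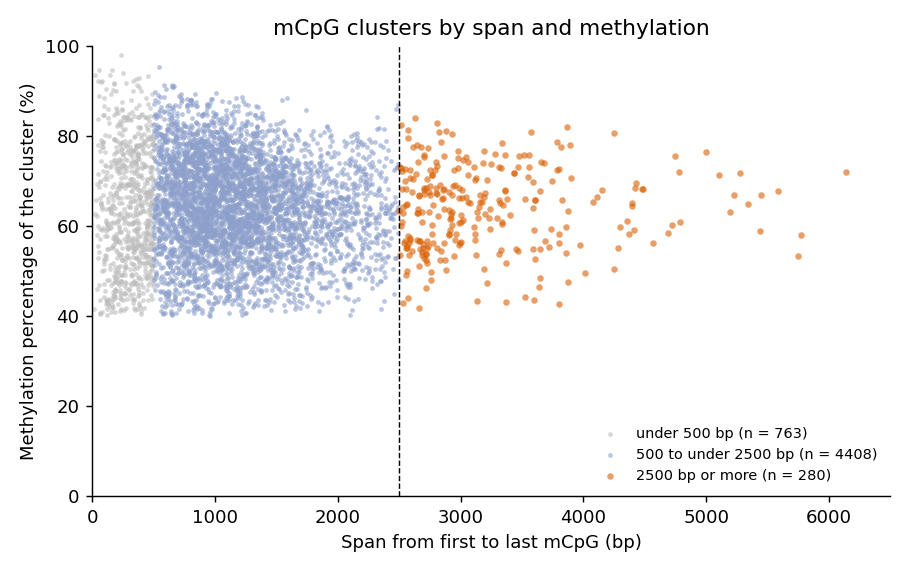
Each point is 1 mCpG cluster, with its span from first to last mCpG (bp) against its methylation percentage, and the dashed line marks 2500 bp. The 280 long clusters lie between 41.8% and 84.1%, within the range of the shorter clusters, and no cluster lies below 40% because the rule leaves these out.

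Long clusters near the threshold were the commonest. Spans ran from 2501 to 6136 bp with a median of 2999 bp (interval 2928 to 3119 bp). There were 140 clusters under 3000 bp, 105 from 3000 to under 4000 bp, 24 from 4000 to under 5000 bp and 11 of 5000 bp or more. The members just inside the threshold were 2 clusters on SCAFFOLD22 (177378 to 179879 and 2236940 to 2239444, spans of 2501 and 2504 bp) and 1 on SCAFFOLD127 (151300 to 153806, 2506 bp), with methylation percentages of 63.4%, 53.7% and 73.2%. Just outside it lay clusters on SCAFFOLD2 (6557583 to 6560078, 2495 bp), SCAFFOLD35 (898766 to 901256, 2490 bp) and SCAFFOLD74 (234658 to 237148, 2490 bp), with 47.9%, 58.5% and 73.8%. Clusters on the 2 sides of the threshold thus covered much the same range of levels. Of 299 chains of 2500 bp or more, 10 missed only the share of mCpGs, 7 missed only the methylation percentage and 2 missed both.

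Nearly all long clusters held at least 1 wide spacing. The widest step between neighboring mCpGs of a cluster had a median of 374 bp, and it was above 200 bp in 276 of the 280 clusters. When mCpGs were chained over at most 200 bp, only 5 clusters of 2500 bp or more were left. These lay on SCAFFOLD23 (2142040 to 2144861), SCAFFOLD54 (444163 to 446960), SCAFFOLD84 (697208 to 699755), SCAFFOLD584 (431 to 3081) and SCAFFOLD5034 (815 to 4371), and are named after their values were seen. Their methylation percentages under that limit were 80.9%, 68.4%, 79.0%, 74.2% and 73.1%, above the median of the 280 long clusters in each case. The 2 sides of this comparison differ in their gap limit, and a narrower limit can trim a cluster. The stretch on SCAFFOLD84 lay in a cluster of 68.5% under the main rule (696186 to 700606), while that on SCAFFOLD5034 was the same under both.

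The longest cluster lay on SCAFFOLD170 from 228514 to 234650. The longest span depended on the rule, with 3556 bp for gaps of at most 200 bp and 8154 bp for a minimum of 5 reads. In the cluster as called here, the span of 6136 bp had 76 covered CpGs among 101 sites, with 73 mCpGs, and 1570 of 2180 reads were methylated (72.0%, interval 70.1% to 73.9%). In successive blocks of 500 bp from its start, the methylation percentage was 84.3%, 63.7%, 58.6%, 68.9%, 53.2%, 77.0%, 53.5%, 53.2%, 87.5%, 85.5%, 91.2%, 90.5% and, in the last partial block, 64.0%. The most methylated part therefore lay between 4000 and 6000 bp from the start. Neighboring CpGs could differ far more than blocks did. At 1195 and 1222 bp from the start all of 15 and all of 10 reads were methylated, while between them, at 1203 and 1214 bp, 2 of 16 and 2 of 13 reads were. Such sites have few reads, and a single site's level is correspondingly imprecise.

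The cluster on SCAFFOLD13 from 1220680 to 1226452 was next in span (5772 bp) and one of the 3 with the fewest CpGs per bp, with 44 CpG sites, or 0.762 per 100 bp. Its 36 mCpGs among 39 covered CpGs gave a methylation percentage of 58.1% (935 of 1610 reads, interval 55.7% to 60.5%). The first 1000 bp were at 78.9% and 70.5% in blocks of 500 bp, followed by 25.3% in the next block, where 3 CpGs were covered. The cluster on SCAFFOLD249 from 587 to 6335 (5748 bp, 51 mCpGs among 58 covered CpGs, 53.3%) was split along its length. Its blocks of 500 bp were at 57.0% to 87.8% over the first 3000 bp and at 23.9% to 60.5% over the rest. Highly and sparsely methylated sites alternated around the change. From 2879 to 3090 bp from its start 4 mCpGs had 84.6% to 95.5%, the next covered CpG at 3225 bp had no methylated read among 40, and the site 8 bp on, at 3233 bp, had 28 of 37. The sites at 3280 and 3343 bp had 6 of 58 and 11 of 55 methylated reads, and that at 3388 bp had 39 of 42.

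A further 7 clusters completed the 10 longest. On SCAFFOLD7 a span of 5583 bp (789308 to 794891) held the largest number of CpG sites among the long clusters, 108, with 90 mCpGs among 95 covered CpGs and a methylation percentage of 67.8%. On SCAFFOLD108 (274175 to 279618) the percentage was 67.0% with 53 of 56 covered CpGs as mCpGs, and no mCpG had 25% or less. The cluster on SCAFFOLD10 (2739811 to 2745248) had all its 55 CpG sites covered and 58.9%, with blocks from 19.3% to 88.3%. SCAFFOLD258 (12632 to 17971) was at 64.8%, SCAFFOLD45 (181629 to 186902) at 71.7%, SCAFFOLD369 (47678 to 52906) at 67.0% and SCAFFOLD417 (5342 to 10533) at 63.1%. All 10 lay within the range of the other long clusters in level, from 53.3% to 72.0%. Across the 280 clusters, span and methylation percentage had a Spearman's correlation of 0.0533, given as a description over clusters that share 1 library.

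**Figure D2:**
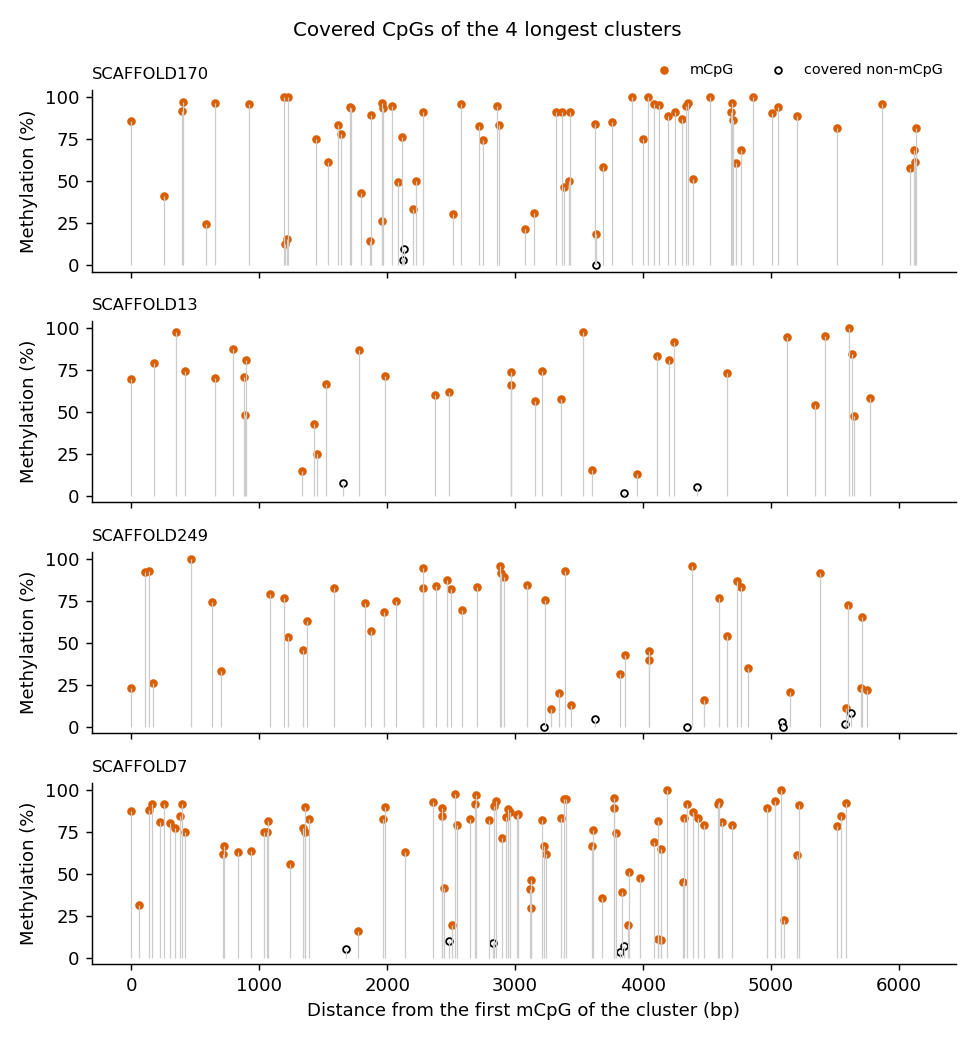
Each panel shows the covered CpGs of one of the 4 longest clusters, with distance from its first mCpG (bp) against the methylation percentage of the site; filled points are mCpGs and open points covered non-mCpGs. Sites near 100% and sites near 12.5% lie close together in the cluster of SCAFFOLD170, and the cluster of SCAFFOLD249 is lower after about 3000 bp.

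The methylation percentage varied widely between long clusters. The median over clusters was 64.6% (interval 63.1% to 66.0%), and the middle 50% of the clusters lay between 56.6% and 70.7%. By steps of 10 points, 18 clusters had 50% or less, 80 had 50% to 60%, 103 had 60% to 70%, 69 had 70% to 80%, and 10 exceeded 80%. The highest was on SCAFFOLD675 (170 to 2800), where all 26 covered CpGs were mCpGs and 915 of 1088 reads were methylated, or 84.1% (interval 81.8% to 86.2%). SCAFFOLD341 (54386 to 57197) followed with 82.9% and SCAFFOLD13 (313685 to 316200) with 82.4%, and neither had a covered non-mCpG. At the low end were SCAFFOLD16 (2435320 to 2437981) with 41.8% (443 of 1061 reads, interval 38.8% to 44.7%), SCAFFOLD5 (4537645 to 4541448) with 42.6% and SCAFFOLD47 (1287166 to 1289698) with 42.9%. These 3 still had 85.7%, 84.8% and 86.7% mCpGs among their covered CpGs. In SCAFFOLD16 2 of 18 mCpGs were above 75%, against 21 of 26 in SCAFFOLD675.

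Single mCpGs of the long clusters were mostly highly methylated. Their median was 78.8%, and 6037 of the 10921 (55.3%) were above 75%, beside 53.1% of the mCpGs in mid-length clusters and 46.5% in short ones. Over all scaffolds 54331 of the 116929 mCpGs were above 75%, which is 0.695% of all covered CpGs, mCpGs or not. Between 25% and 75% lay 4094 mCpGs (37.5%), and 790 (7.23%) were at 25% or less. All reads were methylated at 679 mCpGs (6.22%). Low mCpGs were not confined to a few clusters, as 252 of 280 clusters (interval 85.9% to 93.0%) held at least 1 mCpG at 25% or less. Long clusters had a median of 37 mCpGs, so this count does not show how evenly the low ones were spread. The standard deviation of the mCpG percentages within a cluster had a median of 23.1 percentage points.

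Within a long cluster, the methylation percentage differed between parts. A window of 500 bp was moved along each cluster in steps of 50 bp and kept where 4 or more CpGs in it were covered. By this measure the highest window of a cluster had a median of 88.8% and the lowest a median of 38.8%. The highest window was above 75% in 265 clusters and the lowest below 40% in 149, and 138 clusters (49.3%) had both. These windows overlap and are the extremes of each cluster, so a wide range is partly set by how they are picked. The order of high and low windows along a cluster was not examined. The widest range, in a cluster named after its values were seen, was that of SCAFFOLD1 from 8189343 to 8191908, with windows from 11.2% to 94.7% and a total of 50.0%. Its first 500 bp were at 81.0% and its last 500 bp at 12.7%. The narrowest was that of SCAFFOLD341, from 79.9% to 89.5%. Uneven ends were common, for the first and last 500 bp differed by more than 20 percentage points in 110 clusters (39.3%), with a median difference of 15.3 points in either direction. The orientation of genes along the scaffolds was not used, so neither end is a 5′ end here.

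Runs of highly methylated mCpGs were short relative to the clusters. The longest run of consecutive mCpGs above 75% had a median of 6 mCpGs per cluster. Covered non-mCpGs and uncovered CpGs were passed over in counting runs, so a run need not be unbroken. The longest runs had 24 mCpGs, on SCAFFOLD15 from 156336 to 161334 and on SCAFFOLD20 from 1495890 to 1498816, which are also named after their values were seen.

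Covered non-mCpGs inside the long clusters numbered 767, a median of 2 per cluster. They formed 491 single sites and 138 stretches of 2, the longest the rule allows. In 42 clusters (15.0%) every covered CpG was an mCpG, 99 had 1 or 2 non-mCpGs and 139 had 3 or more. The non-mCpGs were not all free of methylated reads, as 262 of them (34.2%) had none and the pooled percentage was 3.70% (1317 of 35605 reads, interval 3.51% to 3.90%). The largest number, 13 among 68 covered CpGs, was in the cluster of SCAFFOLD101 from 506375 to 510943, which with 80.9% mCpGs was also the nearest to the limit of 80%.

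Long clusters were poor in CpGs. The median was 1.37 CpG sites per 100 bp (interval 1.33 to 1.44), beside 1.68 in mid-length clusters, 2.56 in short clusters and 4.76 over all scaffolds. All 280 were below the value of all scaffolds. Densities ran from 0.678 on SCAFFOLD127 (151300 to 153806), where 17 CpG sites lay in a span of 2506 bp and all were mCpGs, to 3.18 on SCAFFOLD9 (2678263 to 2681002), with 87 CpG sites. The next lowest were SCAFFOLD74 (185290 to 188757) with 0.750 and the cluster of SCAFFOLD13 described above, and the next highest were SCAFFOLD544 (135842 to 138840) with 2.80 and SCAFFOLD514 (423 to 3233) with 2.53. The span, the gap limit and the density are not free of each other, because a chain with few CpGs can reach 2500 bp with fewer sites. Neighboring CpG sites were a median of 44 bp apart in long clusters, 39 bp in mid-length clusters and 10 bp over all scaffolds. Sites 2 bp apart, the spacing of the sequence CGCG, made up 1.92% of neighboring pairs in long clusters (247 of 12850, interval 1.7% to 2.17%), 1.54% in mid-length clusters (interval 1.46% to 1.62%) and 11.5% over all scaffolds.

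Among the long clusters themselves, those with more CpGs per bp were the more methylated. Among 3 groups of nearly equal size, the one with the lowest density (0.678 to 1.25 CpG sites per 100 bp, 93 clusters) had a median methylation percentage of 59.7% (interval 56.4% to 63.4%), the middle group 63.5% (interval 61.9% to 66.8%) and the one with the highest density (1.56 to 3.18, 94 clusters) 68.2% (interval 66.2% to 71.4%). Spearman's correlation between density and methylation percentage over the 280 clusters was 0.311, a description without a test. Depth moved with both. Mean reads per covered CpG had a median of 40.9 in the lowest density group and 35.1 in the highest, and the correlation of depth with methylation percentage was -0.285. The part of depth in this relation was not tested.

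The long clusters were read more deeply than shorter ones. The median of mean reads per covered CpG was 37.9 (interval 36.5 to 38.8), beside 33.7 in mid-length and 30.2 in short clusters. Depth was not free of the rule, since only CpGs with at least 10 reads could be mCpGs and link a chain. These depths are therefore a description. Over single covered CpGs the median was 33 reads in long, 29 in mid-length and 27 in short clusters, and 19 over all scaffolds. The middle 50% of the long clusters lay between 33.8 and 43.6. The deepest was SCAFFOLD418 from 18048 to 20586 with 111 reads per covered CpG and a methylation percentage of 56.2%, followed by SCAFFOLD158 (126052 to 129286) with 78.5 reads, and both are named after their values were seen. Leaving out the 7769 covered CpGs with more than 170 reads, 20 of them inside long clusters, left 279 long clusters.

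Long clusters were found on 162 scaffolds. On 113 of these there was 1, and the most were 10 of 353 clusters on SCAFFOLD1 and 7 of 67 on SCAFFOLD35. Over all scaffolds 5.14% of clusters were long. The share of long clusters among the clusters was higher on short scaffolds than on long ones. Scaffolds under 100 kbp held 15.0% of the long clusters and 15.0% of the scaffold length. They held less of the mid-length clusters (3.68%), of the short clusters (5.24%) and of all covered CpGs (7.04%). Of all clusters together they held 4.48%. On scaffolds under 20 kbp, 20 of 115 clusters were long (17.4%, interval 11.5% to 25.3%), and on scaffolds of 20 to under 100 kbp 22 of 129 (17.1%, interval 11.5% to 24.5%). The share was 9.85% (99 of 1005, interval 8.16% to 11.8%) on scaffolds of 100 kbp to under 1 Mbp and 3.31% (139 of 4202, interval 2.81% to 3.89%) on those of 1 Mbp or more. The intervals of the 2 classes under 100 kbp lie above that of the longest class, and treat clusters as independent, which neighbors on 1 scaffold need not be. No cluster can run past the end of its scaffold, and the median span of long clusters was 3325 bp (interval 3020 to 3556 bp) on scaffolds under 100 kbp and 2877 bp (interval 2789 to 2947 bp) on scaffolds of 1 Mbp or more.

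**Figure D3:**
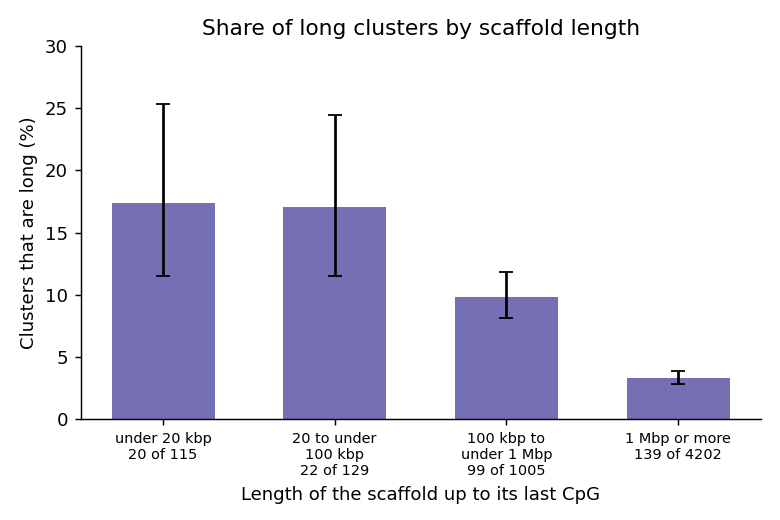
Bars give the percentage of mCpG clusters with a span of 2500 bp or more, in 4 classes of scaffold length, with 95% Wilson intervals as error bars and the counts below each bar. The share is 17.4% on scaffolds under 20 kbp and 3.31% on scaffolds of 1 Mbp or more.

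The median methylation percentage of long clusters was also highest on the shortest scaffolds. It was 69.4% (interval 64.0% to 73.0%, 42 clusters) on scaffolds under 100 kbp, 67.0% (interval 63.3% to 68.4%, 99 clusters) on those of 100 kbp to under 1 Mbp and 62.4% (interval 59.0% to 64.5%, 139 clusters) on those of 1 Mbp or more. The intervals of the first and the last class overlap between 64.0% and 64.5%. In mid-length clusters the same classes had medians of 68.4%, 65.6% and 64.2%. Depth was close in the 3 classes of long clusters, with medians of 39.1, 37.2 and 38.0 reads per covered CpG. In mid-length clusters it fell from class to class, with medians of 36.5, 34.3 and 33.4. The part of depth was not tested. On scaffolds under 100 kbp, 6 of 42 long clusters and 35 of 162 mid-length clusters reached within 500 bp of a scaffold end. In 5 long clusters, named after their values were seen, the span was more than 50% of the scaffold. They lay on SCAFFOLD2467 (59 to 4415), SCAFFOLD5124 (1017 to 5800), SCAFFOLD4634 (722 to 3708), SCAFFOLD5034 (815 to 4371) and SCAFFOLD4984 (179 to 2929), took up 62.6% to 85.4% of their scaffold, and had methylation percentages of 61.1%, 60.8%, 68.5%, 73.1% and 68.9%.

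Methylation dropped sharply at the edges. The rule makes the outermost CpG an mCpG and lets few mCpGs follow it, so the step itself is not a finding, and the levels are given as a description. In the last 100 bp outside the edge 2.70% of reads were methylated (753 of 27848), and 53.6% (15059 of 28084) from 1 to under 100 bp inside it. Going inwards the percentage was 61.3% from 100 to under 250 bp, 66.4% from 250 to under 500 bp, 66.9% from 500 to under 750 bp and 66.9% from 750 to under 1000 bp. It was 63.7% from 1000 to under 1250 bp. The rule places the edges where mCpGs give way to non-mCpGs, and mCpGs made up 85.8% of covered CpGs from 1 to under 100 bp and 94.7% from 250 to under 500 bp, so nothing is read from the lower level beside the edge. Mean depth was 35.7 reads per covered CpG from 1 to under 100 bp and 41.0 from 1000 to under 1250 bp, and its part was not tested. Mid-length clusters had 54.6%, 63.5% and 67.9% in the first 3 of these classes inside the edge.

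**Figure D4:**
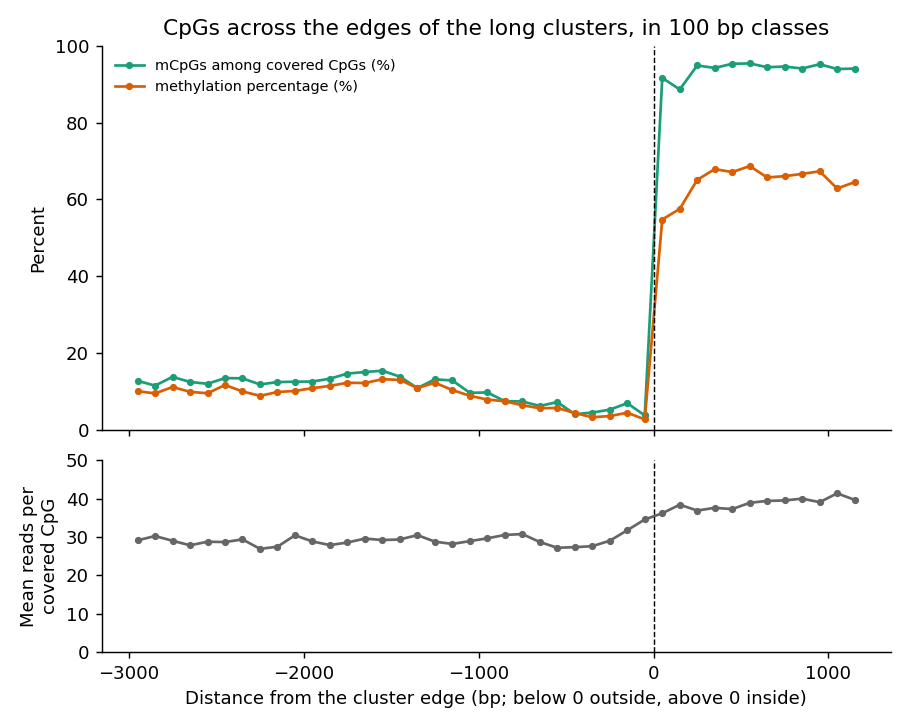
The upper panel gives the percentage of mCpGs among covered CpGs and the methylation percentage in classes of 100 bp, pooled over both edges of the 280 long clusters, against distance from the edge (bp, below 0 outside); the lower panel gives mean reads per covered CpG. The methylation percentage is 2.70% in the last class outside, 54.8% in the first class inside and above 60% from 200 bp inwards.

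Cluster by cluster, however, the ends were not regularly the lower part. CpGs at least 500 bp from both ends had a median percentage of 65.2%, and those within 500 bp of an end 62.8%. The difference, centre minus ends, had a median of 4.04 percentage points (interval 1.02 to 6.04) and was positive in 163 of 280 clusters (58.2%, interval 52.4% to 63.8%). It ran from -38.4 points on SCAFFOLD14 (3098884 to 3101645), at 34.9% in the centre and 73.3% at the ends, to 43.1 points on SCAFFOLD1710 (1811 to 4831), at 83.8% and 40.7%, both named after their values were seen. The centre was higher by more than 10 points in 85 clusters and the ends in 55. With ends of 1000 bp the median difference was 0.999 points (interval -1.46 to 3.37), and with a minimum of 20 reads it was 1.80 points (interval -0.892 to 4.48). The interval also held 0 with more than 20% methylated reads per mCpG (2.97 points, -0.704 to 5.00) and with gaps of at most 200 bp (4.30 points, -4.49 to 13.5).

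Outside the edges, both mCpGs and CpG sites were fewest in the first 500 bp. Within 500 bp of an edge 4.89% of covered CpGs were mCpGs, where the rule keeps them few, but the share was 7.56% from 500 to under 1000 bp, 13.1% from 1000 to 2000 bp and 12.6% from 2000 to 3000 bp. These shares stood above the 1.50% of all scaffolds. In the flanks of mid-length clusters they were 7.46%, 12.3% and 11.9%. The flanks held 3.14 CpG sites per 100 bp in the first 500 bp, 3.92 in the next 500 bp, 3.61 from 1000 to 2000 bp and 3.63 from 2000 to 3000 bp, more than the 1.45 of the pooled long clusters and less than the 4.76 of all scaffolds. Of the 560 edges, 337 were ended both by 3 covered non-mCpGs and by a gap above 500 bp, 91 by non-mCpGs alone and 35 by a gap alone. No further mCpG followed on the scaffold at 97 edges.

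Another cluster lay within 1 kbp of 80 long clusters (28.6%, interval 23.6% to 34.1%), beside 27.9% of mid-length and 55.2% of short clusters. Clusters lay within 1 kbp on both sides in 7 cases. The median distance to the nearest cluster was 1491 bp over the 230 long clusters that shared a scaffold with another cluster. The other 50 (17.9%, interval 13.8% to 22.8%) were alone on their scaffold, against 1.88% of mid-length clusters (interval 1.52% to 2.33%). Long clusters lay on shorter scaffolds, with a median length of 933458 bp against 2981893 bp for mid-length clusters. The part of scaffold length in these shares was not tested. Few long clusters had another long cluster near, and long clusters made up only 5.14% of all clusters. Within 10 kbp of another long cluster lay 28 of the 280, and 4 within 1 kbp, in 2 pairs named after their values were seen. The counts were not compared with those expected from that share. On SCAFFOLD14 clusters of 63.8% (168869 to 171731) and 56.2% (172659 to 176461) were 928 bp apart, and on SCAFFOLD141 clusters of 74.0% (317609 to 320795) and 74.2% (321106 to 324168) were 311 bp apart.

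Within long clusters, the correlation of methylation between mCpGs rose and fell with their distance. Each mCpG's percentage was taken relative to the mean of its cluster, and Pearson's correlation over pairs is given as a description, since pairs share sites, clusters and 1 library. At up to 20 bp the correlation was 0.490 (2827 pairs), where 1 read can cover both sites. It fell to -0.0570 at over 80 to 100 bp and rose to 0.161 at over 160 to 180 bp and 0.184 at over 180 to 200 bp. Another fall to -0.0567 at over 260 to 280 bp was followed by another rise to 0.0790 at over 340 to 360 bp, and a further fall to -0.0791 at over 420 to 440 bp by 0.0344 at over 480 to 500 bp. Past 520 bp no class of 20 bp up to 700 bp was above 0. Mid-length clusters showed falls and rises at similar distances, with -0.133 at over 80 to 100 bp, 0.135 at over 160 to 180 bp, -0.159 at over 240 to 260 bp and 0.0198 at over 340 to 360 bp, so the pattern was not particular to long clusters. Centring lowers the values in clusters with fewer mCpGs, so the heights were not compared. The authors trimmed the reads to less than these distances, so the sites of such pairs were not on the same read.

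**Figure D5:**
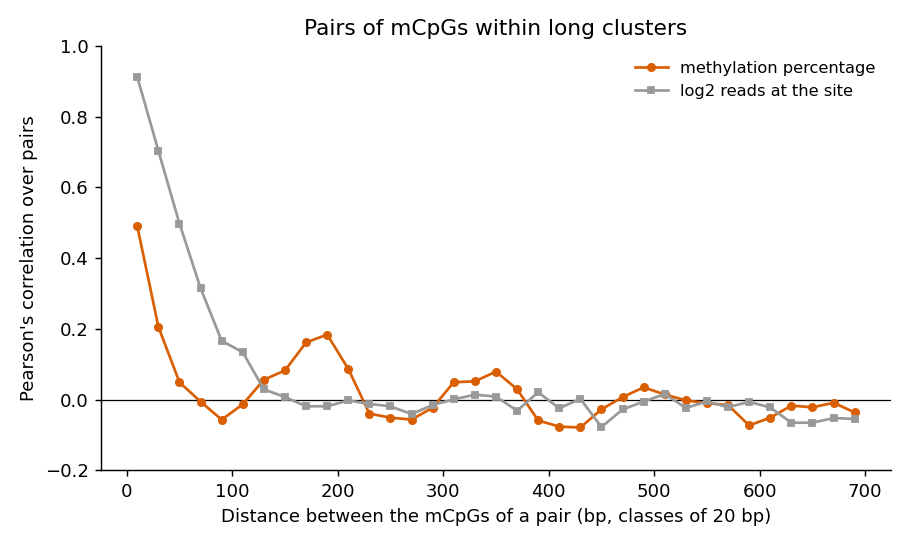
Pearson's correlation over pairs of mCpGs of the same long cluster is shown in classes of 20 bp of distance, for the methylation percentage (circles) and for log2 of the reads at the site (squares), each relative to the mean of its cluster. The circles peak at 0.184 at over 180 to 200 bp and again at 0.0790 at over 340 to 360 bp, where the squares are at -0.0191 and 0.00846.

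Read depth showed no such rises. The correlation of log2 depth over the same pairs was 0.912 at up to 20 bp, 0.166 at over 80 to 100 bp, -0.0191 at over 180 to 200 bp and 0.00846 at over 340 to 360 bp. In pairs over 160 to 200 bp apart, the correlation of methylation was 0.150 on scaffolds under 1 Mbp (2837 pairs of 141 clusters) and 0.200 on longer ones (2254 pairs of 139 clusters). It was 0.221, 0.239 and 0.112 in the groups of lowest, middle and highest CpG density, with -0.0702, -0.0485 and -0.0162 in pairs over 80 to 120 bp apart. The 10 longest clusters alone gave 0.209 over 284 pairs. Every one of these groups was higher over 160 to 200 bp than over 80 to 120 bp. At over 320 to 360 bp the 10 longest clusters had -0.0132, unlike the other groups, which were above 0.

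In all, 5 long clusters overlapped regions or sites in the study's lists of positions. These lists are selected. One holds methylated CpG clusters that lie in genes of the older gene set but not of the newer one. The other holds top candidate sites outside the CpG context, most of which the study places in methylated CpG clusters. The overlaps are therefore given as positions only. The cluster of SCAFFOLD595 from 25954 to 29545 lay within a methylated CpG cluster of the study's own, listed from 25954 to 30792. The study lists it for the gene model NV18909 of the older official gene set. The part called here had 58 mCpGs among 59 covered CpGs and 64.0% (1478 of 2309 reads, interval 62.0% to 65.9%), and the nearest cluster lay 57 bp away. The cluster of SCAFFOLD101 from 506375 to 510943 overlapped 2 of the study's clusters listed for NV50511, from 506775 to 508928 and from 509096 to 512651. It had 55 mCpGs among 68 covered CpGs and 56.3% (1296 of 2300 reads, interval 54.3% to 58.4%). Its first 500 bp were at 44.3% and its last at 93.8%. Another 3 clusters held candidate sites of methylation outside the CpG context. The site at 14939 of SCAFFOLD258, upstream of Nasvi2EG025270 and classed by the study as a CpG context after all, lay in the seventh longest cluster. The sites at 2089425 of SCAFFOLD15, in the 3′-UTR of Nasvi2EG008244, and at 1496661 of SCAFFOLD35, in the 3′-UTR of Nasvi2EG013324, lay in clusters from 2086648 to 2089576 (60.3%) and from 1493994 to 1496713 (68.4%). Both sites were near the right edge of their cluster, whose last 500 bp were less methylated than the first, at 49.2% against 89.0% on SCAFFOLD15 and 53.2% against 77.7% on SCAFFOLD35. Cytosines outside CpGs have no counts here, so the candidate sites themselves were not measured.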

How the data were processed

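Genomic DNA of 1 pool of 50 females was bisulfite converted and sequenced in 2 lanes. Per the labels and the study's methods, the authors called bases with CASAVA 1.7, trimmed the reads, aligned them with BWA to converted reference scaffolds and kept unique alignments without indels. Versions of BWA and the scaffolds, and any removal of duplicates, are not given in the sources used here. The deposited values are raw counts per CpG site of reads with C and with T, not normalized, with both strands and lanes summed. They hold 226856322 counts at 14024488 sites of 6183 scaffolds, and no sites lie 1 bp apart.

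Clusters were called as stated above in Python 3.11.15 with NumPy 2.4.6, pandas 2.3.3 and SciPy 1.17.1, and drawn with matplotlib 3.10.9. A read counts once at each CpG it spans, which weights CpG-rich and deep sites. Groups of samples could not be compared, so no test was run. Named were the 10 longest clusters, the 3 highest and 3 lowest in methylation and in CpG density, the 3 on either side of the threshold and those overlapping listed positions. Members, lists and alternatives were chosen with earlier results of these data known. DNA sequence was not used here.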

Additional observations from a re-analysis of the deposited data

How the results depend on the processing

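The cluster limits decide how many long clusters there are. The number was 280, and 5 with gaps of at most 200 bp, 639 with a span of 2000 bp and 140 with a span of 3000 bp, while 8 other alternatives gave 212 to 374. With the gap of 200 bp, the median methylation percentage was 74.2%, the median CpG density 1.77 per 100 bp and the share with another cluster within 1 kbp 40%, over these 5 clusters. With chains ended by 2 non-mCpGs in a row the median methylation was 67.3% and the neighbor share 36.6%. With 5 in a row these were 62.4% and 22.7%, and the density 1.44. More than 20% methylated reads per mCpG moved the median methylation to 67.0%, and the mean of the sites' own percentages moved it to 67.2%. A minimum of 20 reads moved the neighbor share to 23.6%, and counting only long clusters as neighbors moved it to 1.43%. Centre minus ends moved to 0.999 points (interval -1.46 to 3.37) with ends of 1000 bp. It was above 0 in all 13 alternatives, but its interval held 0 in 4 of them. The correlation of pairs over 160 to 180 bp apart ran from 0.140 to 0.230 over 11 alternatives. The share of all mCpGs in long clusters ran from 0.192% to 17.8%, and the methylation percentage within 500 bp beyond the edges from 1.90% to 18.5%, the highest with the gap of 200 bp. The share of long clusters on scaffolds under 100 kbp was above that on scaffolds of 1 Mbp or more under each of 11 alternatives chosen after seeing the data. With the gap of 200 bp it was 0.246% against 0.0169%, from few clusters. No paired analysis was possible because 1 pool was sequenced and the counts of both lanes are summed, so neither lane could be left out. The depth asked of a site also changed the clusters, with 295 long clusters at a minimum of 5 reads and 212 at 20 reads, and 11.1% in place of 17.2% long on scaffolds under 100 kbp at 20 reads.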
